A study of Homo sapiens with 30 samples.

Results

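The 9 genes described here, NEUROG1, NEUROG2, NEUROD1, NEUROD4, ATOH1, DLL1, DLL3, HES1 and HES5, are proneural transcription factor genes and Notch pathway genes, and they were taken by name from 20037 protein-coding genes. For each gene, every peak of accessible chromatin that overlapped the gene body or the 50 kb on either side of it was collected. These 9 windows held 245 of the 493444 regions that resulted when the peaks of all lists were merged. OmniATAC-seq, in which the Tn5 transposase cuts accessible DNA, was applied by the submitters to wild-type H1 human embryonic stem cells and to their derivatives, with 3 biological replicates in each of 10 groups. The cells were undifferentiated (hPSC, day 0), definitive ectoderm (DE, day 1), anterior or posterior neural ectoderm (aNE and pNE, day 2), or day 4 cells grown from aNE or from pNE in a telencephalon, midbrain or hindbrain medium (aNE_T, aNE_M, aNE_H, pNE_T, pNE_M and pNE_H). Every group after day 0 passed through the DE medium, which held the TGF-beta receptor inhibitor A8301, the MEK inhibitor Trametinib, the WNT secretion inhibitor C59 and the BMP receptor inhibitor LDN193189. The aNE medium held A8301, LDN193189 and C59. In the pNE medium the retinoic acid receptor agonist TTNPB, FGF2 and the tankyrase inhibitor XAV939 stood in place of C59. Thiazovivin, a ROCK inhibitor, was in both day 2 media. For day 2 samples both kinds of cell were plated at 37500 per square cm. For day 4 samples aNE cells were plated at 75000 and pNE cells at 150000 per square cm, so starting population and plating density cannot be told apart at day 4. The telencephalon (forebrain) medium was based on XAV939, LDN193189 and FGF2. The make-up of the midbrain and hindbrain media is not given in the sources used here.

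Proneural genes encode basic helix-loop-helix (bHLH) transcription factors that bind E-boxes and drive neural progenitors toward neurons. NEUROG1, NEUROG2 and ATOH1 act early, in dividing progenitors, and NEUROD1 and NEUROD4 act later along the same route. Proneural factors switch on the Notch ligand DLL1, which activates Notch receptors on the neighbouring cell. The cleaved receptor then works with the DNA-binding protein RBPJ to switch on HES1 and HES5, bHLH repressors that hold proneural genes down, so that some cells stay progenitors while their neighbours differentiate. DLL3 is a divergent Delta protein that acts mainly inside the cell and dampens Notch signalling.

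Promoter sequences of 7 of the 9 genes came from RefSeq (GRCh38.p14). DLL1 and DLL3 had no entry. The 250 bases before the start of 4 genes are printed on the strand of the gene, 5′ to 3′, to show the promoters of the Notch effectors beside that of ATOH1, which peaks covered in full in every list, and that of NEUROG2, which they covered by at most 99 bases. Capitals mark the RBPJ core, TGGGAA, on either strand. They also mark the class C site to which HES factors bind, CACGNG, on either strand. The intervals are chr3:194135898-194136147 on the plus strand for HES1, chr1:2530264-2530513 on the minus strand for HES5, chr4:93828503-93828752 on the plus strand for ATOH1 and chr4:112516181-112516430 on the minus strand for NEUROG2.
HES1: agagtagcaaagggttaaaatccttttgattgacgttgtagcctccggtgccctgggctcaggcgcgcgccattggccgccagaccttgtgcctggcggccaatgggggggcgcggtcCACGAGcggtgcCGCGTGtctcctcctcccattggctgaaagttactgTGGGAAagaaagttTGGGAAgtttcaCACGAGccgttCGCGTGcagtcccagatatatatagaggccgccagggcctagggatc
HES5: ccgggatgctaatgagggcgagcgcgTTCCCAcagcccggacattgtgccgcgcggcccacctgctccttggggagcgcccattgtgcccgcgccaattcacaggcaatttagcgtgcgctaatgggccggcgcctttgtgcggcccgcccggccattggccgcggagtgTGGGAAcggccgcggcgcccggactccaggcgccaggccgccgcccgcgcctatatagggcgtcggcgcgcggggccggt
ATOH1: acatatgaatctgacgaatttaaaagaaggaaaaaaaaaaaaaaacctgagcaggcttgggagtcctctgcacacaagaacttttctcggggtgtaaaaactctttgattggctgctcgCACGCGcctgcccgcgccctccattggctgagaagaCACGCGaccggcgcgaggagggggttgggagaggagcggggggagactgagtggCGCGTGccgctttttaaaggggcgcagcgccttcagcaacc
NEUROG2: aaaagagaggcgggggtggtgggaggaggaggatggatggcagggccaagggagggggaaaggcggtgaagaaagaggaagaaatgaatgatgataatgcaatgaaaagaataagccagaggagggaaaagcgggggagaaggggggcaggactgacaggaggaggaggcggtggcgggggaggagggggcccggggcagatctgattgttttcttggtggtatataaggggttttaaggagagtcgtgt

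The HES1 promoter held 2 RBPJ cores, beginning 84 and 70 bases before the start, and 4 class C sites. HES5 also held 2 RBPJ cores, beginning 224 and 80 bases before the start, the farther one on the other strand, and no class C site. Among 35116 promoters of the same length, 20.8% held at least 1 RBPJ core and 2.90% held 2 or more, counting both strands. ATOH1 held 3 class C sites, at 131, 95 and 41 bases, and no RBPJ core. NEUROG1 and NEUROD1 held 1 class C site each, and NEUROD4 and NEUROG2 held none, against 26.7% of all promoters with 1 or more. The E-box CANNTG was found in the promoters of NEUROD4 (2 matches), ATOH1 and HES5 (1 each) and in 61.8% of all promoters. The form CAGNTG was found in NEUROD4 and HES5 and in 42.5% of all, and the form CAGATG in none of the 7 and in 12.2% of all. The N-box CACNAG was found 3 times in HES1 and once in ATOH1, and in 32.0% of all promoters. Its matches in HES1 include the 2 copies of CACGAG, which are counted as class C sites as well. The 250 bases of NEUROG2 held no match to any motif searched. These matches are letters in a window and were not tested for binding.

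The deposited data were 10 peak lists, 1 for each group, with the start and end of each peak and no score. No value below therefore has a replicate error, no test between conditions was possible, and the differences compare lists. Read depth is unknown. The lists ran from 167792 peaks covering 75.5 Mb in aNE to 313095 peaks covering 129 Mb in pNE_H, scaffolds left out. Relative to its own day 2 list, a day 4 list covered 1.15 times as many bases for aNE_T, 1.21 for aNE_M, 1.11 for aNE_H, 1.04 for pNE_T, 0.977 for pNE_M and 1.5 for pNE_H, and the pNE list covered 1.14 times as many as the aNE list. The lengths of the lists thus differ beside every comparison below. Their part in the results was not tested, but ratios divided by those of the lists are given beside the ratios of each gene, in full, for some of the lists or as a range. In bulk cells, fewer cells with an open site and less opening per cell cannot be told apart. A peak in a window need not act on the named gene, and every window also reached into other protein-coding genes (from 1 to 5). The starts of 6 neural ectoderm markers, among them SOX2, PAX6 and OTX2, had a peak within 1 kb in all 10 lists, and so had the starts of 3 mesendoderm markers and 4 neural crest and surface ectoderm markers, so an open start does not tell these cell types apart. The summed covered bases over the list of mesendoderm marker windows ran from 39422 in pNE_M to 55919 in pNE_H, and over the neural crest and surface ectoderm list from 56370 in pNE_M to 80123 in pNE_H. Over the 5 pluripotency marker windows the sum was highest in hPSC (43089) and lowest in pNE_M (25826). Of 3 pluripotency marker starts, NANOG had no peak within 1 kb in aNE_M, pNE_T and pNE_M. Of 4 hindbrain marker starts, HOXB1 had none in aNE_T, aNE_M and aNE_H, and HOXA2 had none in DE. The sum over the hindbrain marker windows ran from 46282 in aNE_H to 77661 in pNE_H.

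The 9 windows, 951327 bases together, held 141 peaks in hPSC, 165 in DE, 126 in aNE and 134 in pNE. At day 4 they held 125 peaks in aNE_T, 150 in aNE_M, 134 in aNE_H, 143 in pNE_T, 145 in pNE_M and 173 in pNE_H. Peaks covered 6.52% of the windows in hPSC, 6.87% in DE, 6.52% in aNE and 6.83% in pNE. The pooled day 2 shares thus differed little from that of hPSC, but single windows moved in both directions. From hPSC to aNE, DLL3 went from 9974 to 7506 covered bases and HES1 from 8004 to 9449. At day 4 the share was 7.16% in aNE_T, 7.29% in aNE_M, 6.60% in aNE_H, 7.01% in pNE_T, 6.86% in pNE_M and 8.60% in pNE_H. The share was highest in the longest list, pNE_H. Per Mb covered by the list the order turned, with 633 bases of the 9 windows in pNE_H, the lowest of the 10 lists, and 822 in aNE, the highest. In every list this pooled share was above the median of the single windows of all protein-coding genes, which ran from 4.04% in pNE_M to 5.84% in pNE_H. The 2 measures are unlike, and single windows lay on both sides. NEUROD1 was below the median in every list except pNE_M (in aNE 3.39% against 4.15%). NEUROG2 was below it in DE, NEUROD4 in hPSC and ATOH1 in hPSC and DE. All other values of the 9 genes were above it.

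**Figure D1:**
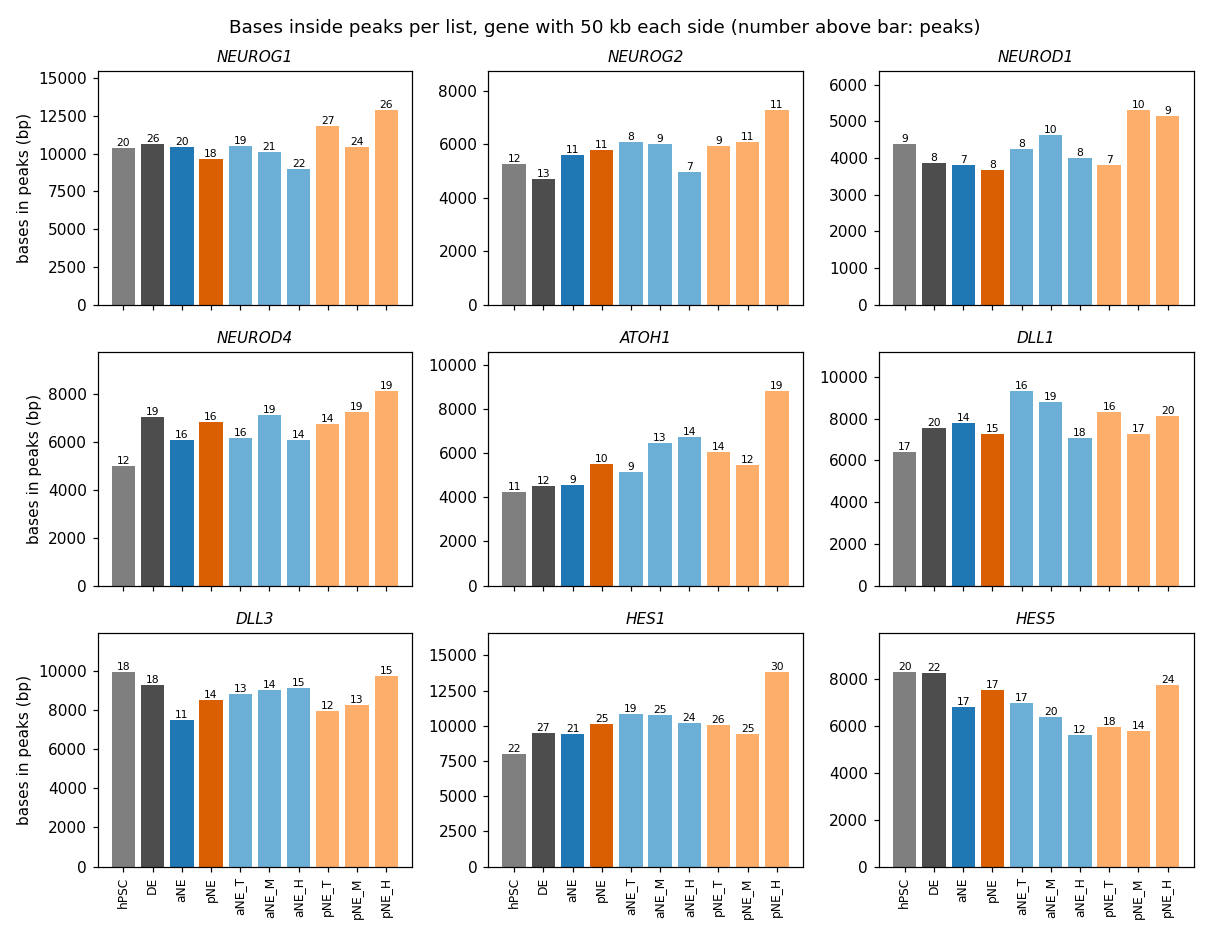
Bars show the bases inside peaks (y axis, bp, from 0) in the window of each gene for each of the 10 peak lists (x axis), and the number above each bar counts the peaks. There are no error bars because each group has 1 list. ATOH1 runs from 4251 in hPSC to 8824 in pNE_H, while HES5 is highest in hPSC (8312) and lowest in aNE_H (5628).

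A window was called higher or lower at day 4 where its covered bases differed by at least 1.5 times from its own day 2 list, among protein-coding genes with at least 1000 covered bases in either list. By this rule 1 of 54 values of the 9 genes was called, ATOH1 in pNE_H, where 23.0% of all tested genes were called higher and 0.225% lower. None of the 9 was called in aNE_T, where 3.23% of genes were called higher and 0.312% lower. None was called in aNE_M, against 6.39% higher and 0.632% lower, or in aNE_H, against 5.20% higher and 1.66% lower. The aNE-derived lists thus held no called gene among the 9. None was called in pNE_T, against 3.11% higher and 2.00% lower, or in pNE_M, against 1.90% higher and 3.63% lower. Between the day 2 lists none was called in pNE against aNE, where 4.21% of genes were called higher and 0.358% lower. These counts of 0 or 1 in 9 are near the background. The median ratio of the 9 genes was 1.12 in aNE_T, 1.14 in aNE_M, 1.00 in aNE_H, 1.03 in pNE_T, 0.998 in pNE_M and 1.26 in pNE_H. Over all tested genes the medians were 1.11, 1.11, 1.02, 0.996, 0.926 and 1.29 in the same order. Covered bases were higher at day 4 for 9 of 9 genes in aNE_T and pNE_H, 7 in aNE_M, 5 in aNE_H and pNE_T and 4 in pNE_M. After division by the bases of each list, only 2 genes were higher in aNE_T, 1 in pNE_H, 2 each in aNE_M and aNE_H, 4 in pNE_T and 6 in pNE_M, so the direction shared by all 9 genes in aNE_T and pNE_H is reversed by this scaling for 7 and 8 of them.

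**Figure D2:**
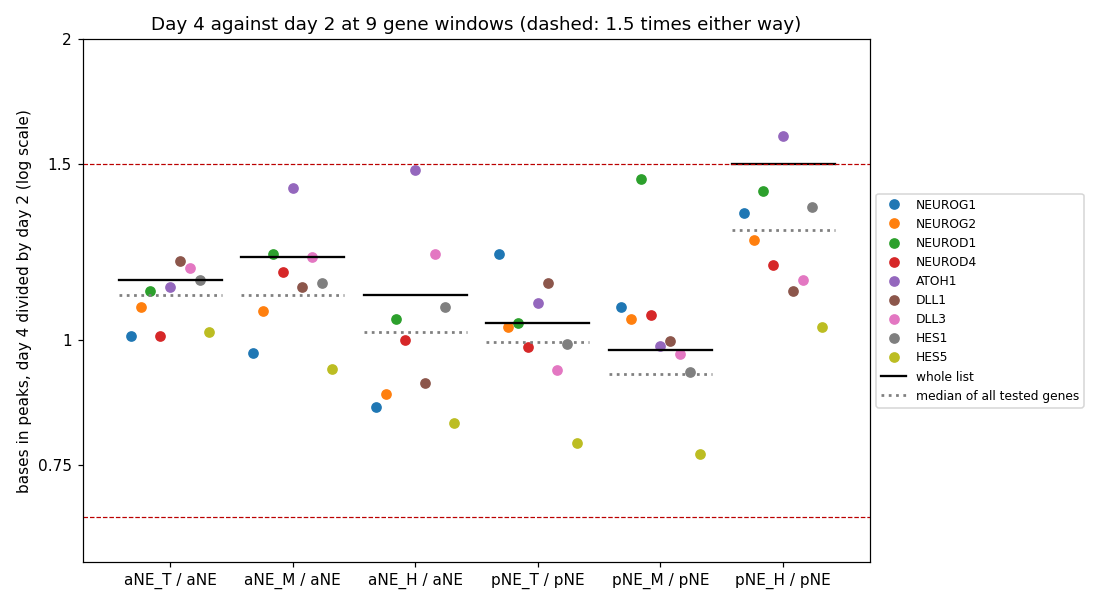
Each point is 1 gene, with the covered bases of its window at day 4 divided by those of its own day 2 list (y axis, log scale) for the 6 day 4 lists (x axis). Black lines mark the ratio of the whole lists, dotted lines the median of all tested genes and dashed lines 1.5 times either way. ATOH1 at 1.60 in pNE_H is the single point outside the dashed lines, and HES5 is the lowest point in 5 of the 6 comparisons.

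NEUROG1 (chr5:135534282-135535964), which specifies sensory and some central neurons, had the most densely covered of the proneural windows. Its window held 10372 covered bases in hPSC, 10655 in DE, 10447 in aNE and 9665 in pNE. The day 4 lists held 10541 in aNE_T, 10139 in aNE_M, 8964 in aNE_H, 11827 in pNE_T, 10448 in pNE_M and 12914 in pNE_H. The 3 pNE-derived lists were all above pNE, and aNE_M and aNE_H were below aNE, while aNE_T was 94 bases above aNE (0.874 times after division by the bases of each list). The ratios to day 2 were 1.22 in pNE_T, 1.08 in pNE_M and 1.34 in pNE_H, and 1.18, 1.11 and 0.892 after division by the bases of each list. Relative to pNE, 8 regions appeared in pNE_T, 5 in pNE_M and 5 in pNE_H, and no region of pNE was missing from any of them. Of the regions named by rule, chr5:135571194-135571467, 35.2 kb from the gene and inside CXCL14, was open in the 3 pNE-derived lists and nowhere else (1.22% of the regions of the 9 windows and 1.69% of all regions were shared by these 3 lists and by no other list of day 2 or day 4), with 272, 118 and 255 covered bases in pNE_T, pNE_M and pNE_H. A further region, chr5:135559409-135559630, was open in the same 3 lists and in hPSC. The broad peak over the NEUROG1 gene (chr5:135534467-135536722) was present in all 10 lists with 1609 to 2072 covered bases.

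NEUROG2 (chr4:112513516-112516180), which drives cortical and spinal neurogenesis, had few peaks, between 7 in aNE_H and 13 in DE. Its window held 5283 covered bases in hPSC, 4694 in DE, 5610 in aNE and 5773 in pNE. At day 4 it held 6077 in aNE_T, 6003 in aNE_M, 4958 in aNE_H, 5946 in pNE_T, 6083 in pNE_M and 7298 in pNE_H. The aNE_H list was below aNE (0.884 times) and the other 5 day 4 lists were between 1.03 and 1.26 times their day 2 list. Scaled by list, 4 of these 5 fell below 1 (0.938 in aNE_T, 0.885 in aNE_M, 0.993 in pNE_T and 0.844 in pNE_H), and pNE_M was at 1.08. The start of NEUROG2 lay at the edge between 2 regions that were open in all lists. The region over the gene (chr4:112514712-112516226) held 1205 covered bases in pNE and 275 in pNE_M, the lowest of the 10 lists. The region just before the gene (chr4:112516373-112517666) held 1159 bases in pNE, 1121 in pNE_T, 1212 in pNE_M and 1272 in pNE_H, against 618 in aNE, 755 in aNE_T, 614 in aNE_M, 610 in aNE_H, 486 in hPSC and 436 in DE. The 4 pNE-side lists thus did not overlap the 4 aNE-side lists there. It was the single such region among the 73 regions of the 9 windows that were open in all lists and was picked out after its values were seen. Of all 81658 regions open in all lists, 2.09% had more bases in every pNE-side list than in every aNE-side list and 1.75% the reverse (0 of the 73 here), so 1 of 73 is near the background. Peaks covered 0 of the 250 promoter bases printed above in hPSC, aNE and aNE_H and at most 99, in aNE_T and pNE_M. Some 27.1 kb from the other end of the gene, chr4:112485780-112486402 was open in DE, pNE and the 3 pNE-derived lists and in neither aNE nor any aNE-derived list, with 170 bases in pNE and 374, 342 and 623 in pNE_T, pNE_M and pNE_H. This region too was picked out after its values were seen. The share of all regions with its pattern was not computed, so no difference between origins is read from it.

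NEUROD1 (chr2:181668295-181680517), a factor of later neuronal differentiation and of endocrine cells, was among the least covered windows. It held 4373 bases in hPSC, 3869 in DE, 3799 in aNE and 3659 in pNE. The day 4 lists had 4240 in aNE_T, 4629 in aNE_M, 3997 in aNE_H, 3815 in pNE_T, 5313 in pNE_M and 5144 in pNE_H. All 6 day 4 lists were above their day 2 list, from 1.04 times in pNE_T to 1.45 times in pNE_M. After division by the bases of each list the ratio was 0.967 in aNE_T, 0.945 in aNE_H and 0.938 in pNE_H, and 1.49 in pNE_M. The pNE_M ratio of 1.45 was just inside the limit of 1.5, and 2.29% of tested genes had a ratio as high or higher there. The start itself was under a peak only in aNE_M, but 183 to 250 of the 250 bases before it were covered in every list. A region 13.6 kb beyond the start, chr2:181694086-181694570, was open in aNE (462 bases), pNE (209), aNE_T (485), aNE_M (388) and aNE_H (126) and in none of the 3 pNE-derived lists, hPSC or DE. Conversely chr2:181632760-181633241, 35.1 kb past the far end and inside CERKL, was open in aNE_M, pNE_M and pNE_H, with 137, 482 and 423 bases.

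NEUROD4 (chr12:55019974-55030017), which acts with NEUROG factors in retina and spinal cord, held 4993 covered bases in hPSC, 7055 in DE, 6072 in aNE and 6841 in pNE. Its day 4 values were 6149 in aNE_T, 7118 in aNE_M, 6088 in aNE_H, 6739 in pNE_T, 7259 in pNE_M and 8134 in pNE_H. The hPSC list was the lowest of the 10, and the ratios to day 2 ran from 0.985 in pNE_T to 1.19 in pNE_H. Scaled by the bases of each list they were 0.877 in aNE_T, 0.970 in aNE_M, 0.901 in aNE_H, 0.949 in pNE_T, 1.09 in pNE_M and 0.794 in pNE_H, so that pNE_H turned from the highest to the lowest. Its start was under a peak of 622 to 785 bp in all 10 lists. Upstream, 10.1 kb before the gene, chr12:55008691-55009852 held no peak in hPSC or aNE and 154 covered bases in aNE_T, against 928 in aNE_M and 1101 in aNE_H. The same region held 864 bases in pNE, 201 in pNE_T, 975 in pNE_M and 897 in pNE_H, so within each origin the telencephalon list was the lowest of the 3 media. Past the gene, chr12:55054181-55054471 and chr12:55063129-55063712 were open in DE, aNE and aNE_T and in no other list. This combination of lists, noticed after the values were seen, was met in 4 of the 245 regions here (2 at NEUROD4 and 1 each at HES1 and HES5), or 1.63%, and in 0.318% of all regions. Other combinations looked up in the same way, given at DLL3 and HES1, were near their background.

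ATOH1 (chr4:93828753-93830964), the factor of cerebellar granule cells, hair cells and dorsal hindbrain and spinal interneurons, had the widest spread of covered bases over the lists. Its window held 4251 covered bases in hPSC, 4513 in DE, 4549 in aNE and 5523 in pNE. The later lists showed 5126 in aNE_T, 6477 in aNE_M, 6711 in aNE_H, 6043 in pNE_T, 5446 in pNE_M and 8824 in pNE_H. The highest value, in pNE_H, was 2.08 times the lowest, in hPSC. Per Mb covered by the list ATOH1 ran from 48.0 bases in DE to 79.9 in aNE_H. It was then no longer the widest, as DLL1 ran from 62.9 in pNE_H to 107 in aNE_T. Within each origin the hindbrain list was the highest. Relative to day 2 the ratios were 1.13 in aNE_T, 1.42 in aNE_M, 1.48 in aNE_H, 1.09 in pNE_T, 0.986 in pNE_M and 1.60 in pNE_H. ATOH1 was the highest of the 9 genes in aNE_M, aNE_H and pNE_H. Of all tested genes 9.14% had a ratio as high or higher in aNE_M, 5.60% in aNE_H and 16.2% in pNE_H. After division by the bases of each list the ratios were 0.976, 1.18, 1.33, 1.05, 1.01 and 1.07 in the same order of lists, so that aNE_T and pNE_M change direction and pNE_H is no longer called. In pNE_H 9 regions appeared relative to pNE and none was missing.

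At ATOH1 the regions that were not open in all lists lay away from the gene. The start was under a peak of 1185 to 1635 bp in all lists, and a second constant region, chr4:93834308-93835427, began 3.34 kb past the gene and held 789 to 1093 bases. ATOH1 is known from mouse for an enhancer downstream of the gene that responds to the Atoh1 protein itself. Of the variable regions, 4 are given as examples, chosen after their values were seen. The region chr4:93813718-93815010, 13.7 kb before the gene, held 125 bases in aNE and 0, 763 and 859 in aNE_T, aNE_M and aNE_H. It held 553 in pNE, 494 in pNE_T, 160 in pNE_M and 556 in pNE_H. A region 11.5 kb past the gene, chr4:93842512-93843286, was closed in hPSC, DE, aNE, aNE_T and aNE_H, held 156 bases in aNE_M and 186 in pNE, and held 477, 474 and 775 in pNE_T, pNE_M and pNE_H. At 45.2 kb past the gene, chr4:93876120-93876942 held 177 bases in aNE, 469 in aNE_T, 678 in aNE_M and 596 in aNE_H, but 581 in pNE, 172 in pNE_T, 134 in pNE_M and 621 in pNE_H. At 9.71 kb past the gene, chr4:93840673-93841295 held 221 bases in aNE and none in pNE, and was open in all 6 day 4 lists with 283 to 575 bases. With 10 kb instead of 50 kb on either side, which leaves out 3 of these regions, the ATOH1 ratios lay between 0.971 and 1.13. Other settings moved them in aNE_T, aNE_M and aNE_H. There the gene body alone gave 1.26, 1.31 and 1.24, and 100 kb gave 1.22, 1.64 and 1.69. Where a region had to be 50% covered, the ratios were 1.37, 1.96 and 2.1.

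**Figure D3:**
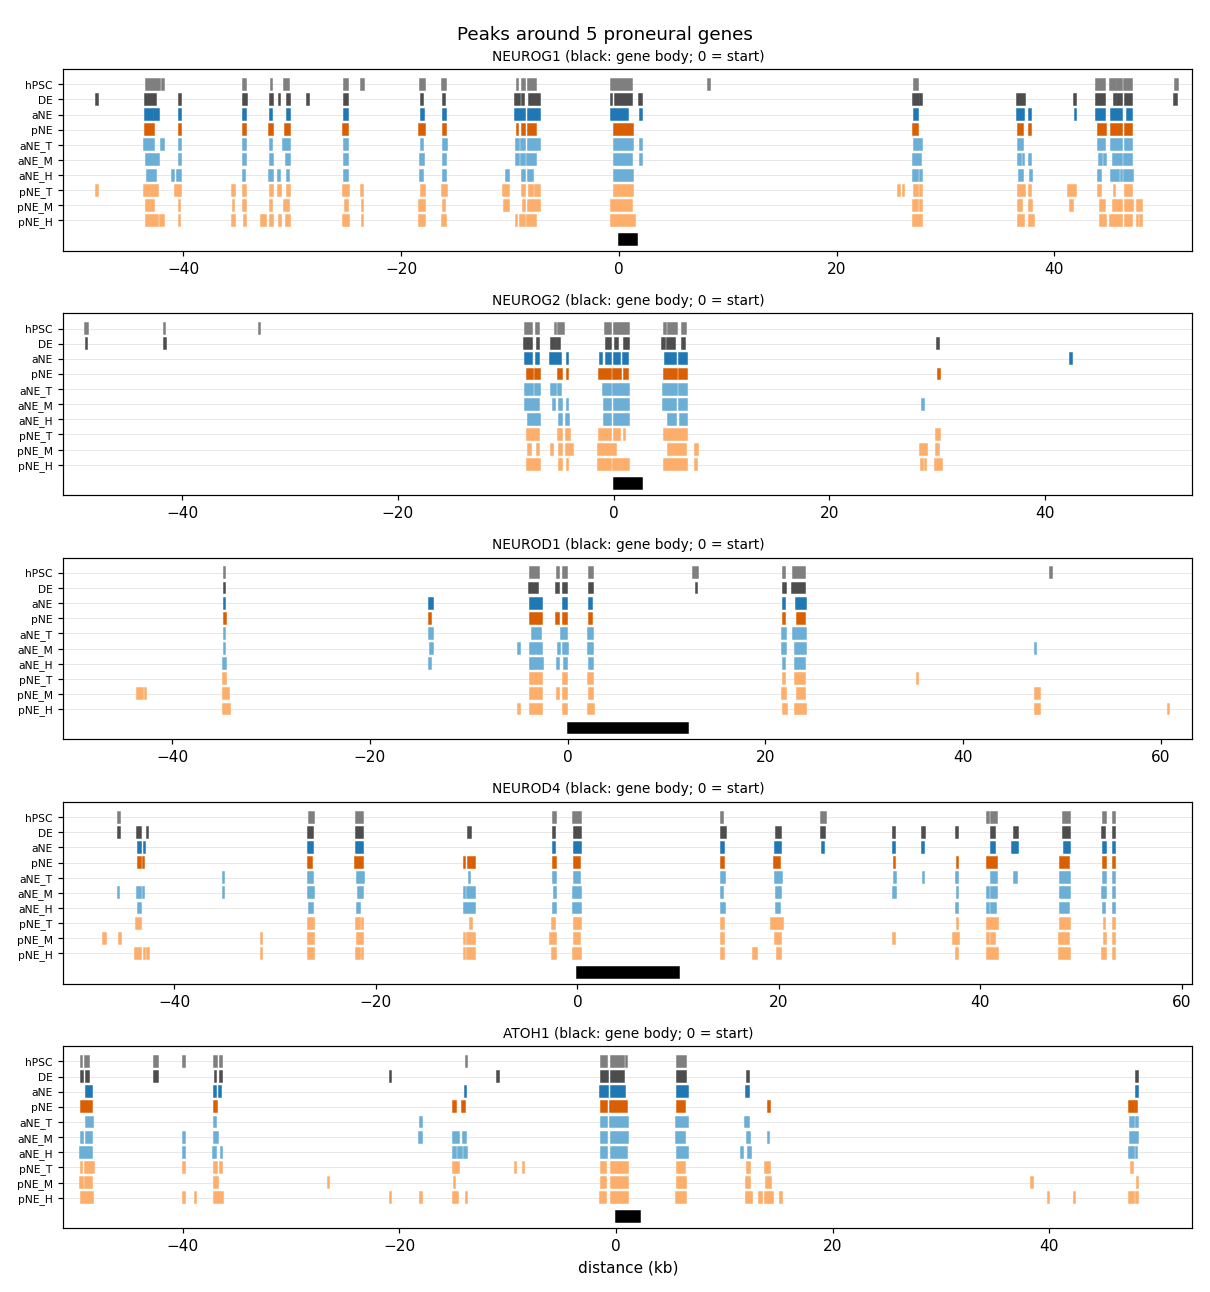
Each coloured block is a peak of 1 of the 10 lists (rows) at its distance in kb from the gene start (x axis, in the direction of transcription), and black bars are the gene bodies. The peak over the gene start of NEUROG1, NEUROD4 and ATOH1 is present in every row, and the blocks around 14 kb past the ATOH1 start are widest in the pNE-derived rows.

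DLL1 (chr6:170282206-170291078), the ligand that presents the Notch signal, held 6423 covered bases in hPSC, 7578 in DE, 7809 in aNE and 7258 in pNE. At day 4 it held 9342 in aNE_T, 8814 in aNE_M, 7076 in aNE_H, 8304 in pNE_T, 7244 in pNE_M and 8127 in pNE_H. It was highest in the telencephalon list within each origin, at 1.20 times aNE in aNE_T and 1.14 times pNE in pNE_T. The aNE_H list was below aNE (0.906 times), and pNE_M differed from pNE by 14 bases. The ratios scaled in the same way were 1.04 in aNE_T, 0.934 in aNE_M, 0.814 in aNE_H, 1.10 in pNE_T, 1.02 in pNE_M and 0.747 in pNE_H, so the direction turned in aNE_M, pNE_M and pNE_H. Compared with aNE, 4, 5 and 3 regions appeared in aNE_T, aNE_M and aNE_H, and none was missing. Of these chr6:170266497-170266838, 15.4 kb from the lower end of the gene, was open in the 3 aNE-derived lists (254, 229 and 126 bases) and in DE but in neither day 2 list and no pNE-derived list. It was the only region of the 9 windows with this day 2 and day 4 pattern, which 0.127% of all regions had. About 45.6 kb below the gene, chr6:170235162-170236629 was closed in hPSC and DE and held 816 bases in aNE and 486 in pNE. At day 4 this region held 1108 bases in aNE_T, 1293 in aNE_M, 460 in aNE_H, 721 in pNE_T, none in pNE_M and 1104 in pNE_H. No strand was given for DLL1, so both ends were examined: the lower end had no peak within 1 kb in any list, and the upper end had 2 or 3 in all of them.

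DLL3 (chr19:39498947-39508469) varied least in covered bases, with the highest list at 1.33 times the lowest. Per Mb covered by the list it ran from 75.6 bases in pNE_H to 118 in hPSC. By that measure HES1 varied less, from 94.4 in hPSC to 125 in aNE. Its window held 9974 covered bases in hPSC, 9301 in DE, 7506 in aNE and 8530 in pNE. The day 4 windows contained 8837 in aNE_T, 9046 in aNE_M, 9144 in aNE_H, 7973 in pNE_T, 8273 in pNE_M and 9769 in pNE_H. The 3 aNE-derived lists were 1.18 to 1.22 times aNE, the lowest list, and pNE_T and pNE_M were 0.935 and 0.970 times pNE. After division by the bases of each list the aNE-derived ratios were 1.02, 0.997 and 1.09, and the pNE_H ratio went from 1.15 to 0.764. The window is rich in other genes (SUPT5H, TIMM50, SELENOV, EID2B and EID2), and 14 of its 24 regions lay in one of them. At the lower end of DLL3, chr19:39497765-39499550 was open in all lists with 1055 to 1697 bases. Inside SELENOV, chr19:39519603-39519988 was open in pNE (230 bases), aNE_M (339), aNE_H (386) and pNE_H (122) and closed in aNE, aNE_T, pNE_T, pNE_M, hPSC and DE. Regions open in pNE, aNE_M and aNE_H and in neither aNE nor aNE_T numbered 7 of 245 (2.86%), against 3.14% of all regions.

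HES1 (chr3:194136148-194138732), a Notch effector that is also used outside the nervous system, held 8004 covered bases in hPSC, 9460 in DE, 9449 in aNE and 10161 in pNE. By day 4 the window held 10847 in aNE_T, 10785 in aNE_M, 10202 in aNE_H, 10077 in pNE_T, 9436 in pNE_M and 13847 in pNE_H. The 3 aNE-derived lists were 1.08 to 1.15 times aNE, pNE_T and pNE_M were 0.992 and 0.929 times pNE, and pNE_H was 1.36 times pNE. All 6 ratios were below 1 after division by the bases of each list, from 0.909 in pNE_H to 0.994 in aNE_T. The start was under a narrow peak of 245 to 362 bp in all 10 lists and which covered 216 to 250 of the promoter bases printed above. Larger regions stood on either side, chr3:194133817-194135342 just before the gene and chr3:194140751-194142225 just after it, each open in all lists with 939 to 1457 bases. Between the gene and the latter region, chr3:194139340-194139855 was open in aNE_M (348 bases), aNE_H (369), pNE_M (234) and pNE_H (496) and closed in both telencephalon lists, both day 2 lists, hPSC and DE. It was picked out after its values were seen. The share of all regions with this pattern was not computed, so no difference between media is read from it. At 46.3 kb past the gene, chr3:194184996-194185564 was open in pNE and all 6 day 4 lists (209 to 510 bases) and closed in hPSC, DE and aNE. Regions open in pNE and all 6 day 4 lists and not in aNE numbered 4 of 245 (1.63%), against 1.7% of all regions.

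HES5 (chr1:2528745-2530263), the effector most tied to Notch signalling in neural progenitors, had fewer covered bases than at day 2 in 4 of the 6 day 4 lists, which no other of the 9 genes had in more than 2. Its window held 8312 covered bases in hPSC, 8269 in DE, 6808 in aNE and 7535 in pNE. The day 4 values were 6977 in aNE_T, 6378 in aNE_M, 5628 in aNE_H, 5947 in pNE_T, 5797 in pNE_M and 7762 in pNE_H. The ratios to day 2 were 1.02 in aNE_T, 0.937 in aNE_M, 0.827 in aNE_H, 0.789 in pNE_T, 0.769 in pNE_M and 1.03 in pNE_H. HES5 had the lowest ratio of the 9 genes in every day 4 list except aNE_T, where NEUROG1 and NEUROD4 were lower. No value passed the limit of 1.5 times, and between 6.84% (pNE_H) and 25.7% (aNE_T) of tested genes had a ratio as low or lower. After division by the bases of each list the ratios were 0.887, 0.775, 0.743, 0.761, 0.788 and 0.687 in the same order, below 1 in all 6 lists. With each peak set to 500 bp, so that differences in width drop out, the ratio was 0.997 in aNE_T, 1.18 in aNE_M, 0.706 in aNE_H, 1.05 in pNE_T, 0.824 in pNE_M and 1.37 in pNE_H. Losses outnumbered gains at HES5 in aNE_T (4 lost, 3 gained), aNE_H (9 and 4), pNE_T (7 and 6) and pNE_M (8 and 5), but not in aNE_M (5 and 8) or pNE_H (1 and 4).

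Few sites at HES5 were constant. Only 4 of its 37 regions were open in all lists (10.8%), against 73 of 245 over the 9 windows, 43.8% of the regions at NEUROG1 and 16.5% of all regions. The region at the start, chr1:2529989-2530638, held 160 bases in hPSC, 271 in DE, 269 in aNE, 228 in pNE, 604 in aNE_T, 348 in aNE_M, 467 in pNE_T, 460 in pNE_M and 147 in pNE_H, and no peak in aNE_H. In aNE_H, 0 of the 250 promoter bases printed above, with the 2 RBPJ cores, lay in a peak, against 147 to 250 in the other 9 lists. The region over the gene body, chr1:2529028-2529622, was present in aNE_H with 312 bases and absent from pNE_M. All 7 genes with a known start had a peak within 1 kb of it in every list by this wider measure, including HES5 in aNE_H, as did 77.3% of 15843 protein-coding starts. Upstream of HES5, at 15.6 kb, the broad region chr1:2545906-2547888 was open in all lists. It held 1875 bases in hPSC, 1101 in DE, 1642 in aNE, 1314 in pNE and 1657 in aNE_T, and 1071 to 1288 in the other 5 day 4 lists. Of the other upstream regions, chr1:2539310-2539710 and chr1:2548074-2548502 were open in hPSC, DE, aNE, pNE, aNE_T, aNE_M and pNE_H. Both were closed in aNE_H, pNE_T and pNE_M. Regions between the first of these and the broad region differed from them. There chr1:2543519-2544135 was open in DE, aNE and pNE, in pNE_T (501 bases), pNE_M (497) and pNE_H (499), and in no aNE-derived list. In the same stretch, chr1:2544301-2544757, 14.0 kb from the gene, was open in the 3 pNE-derived lists alone, with 318, 271 and 311 bases. At 25.2 kb, inside TNFRSF14, chr1:2555418-2556790 held 907 bases in aNE, 468 in aNE_T, none in aNE_M and 197 in aNE_H. It held 979 in pNE, 321 in pNE_T, none in pNE_M and 974 in pNE_H. The neighbouring region chr1:2554983-2555302 was open in aNE_M (242 bases), pNE_M (172) and hPSC (128) and in no other list. The share of all regions with these patterns was not computed.

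**Figure D4:**
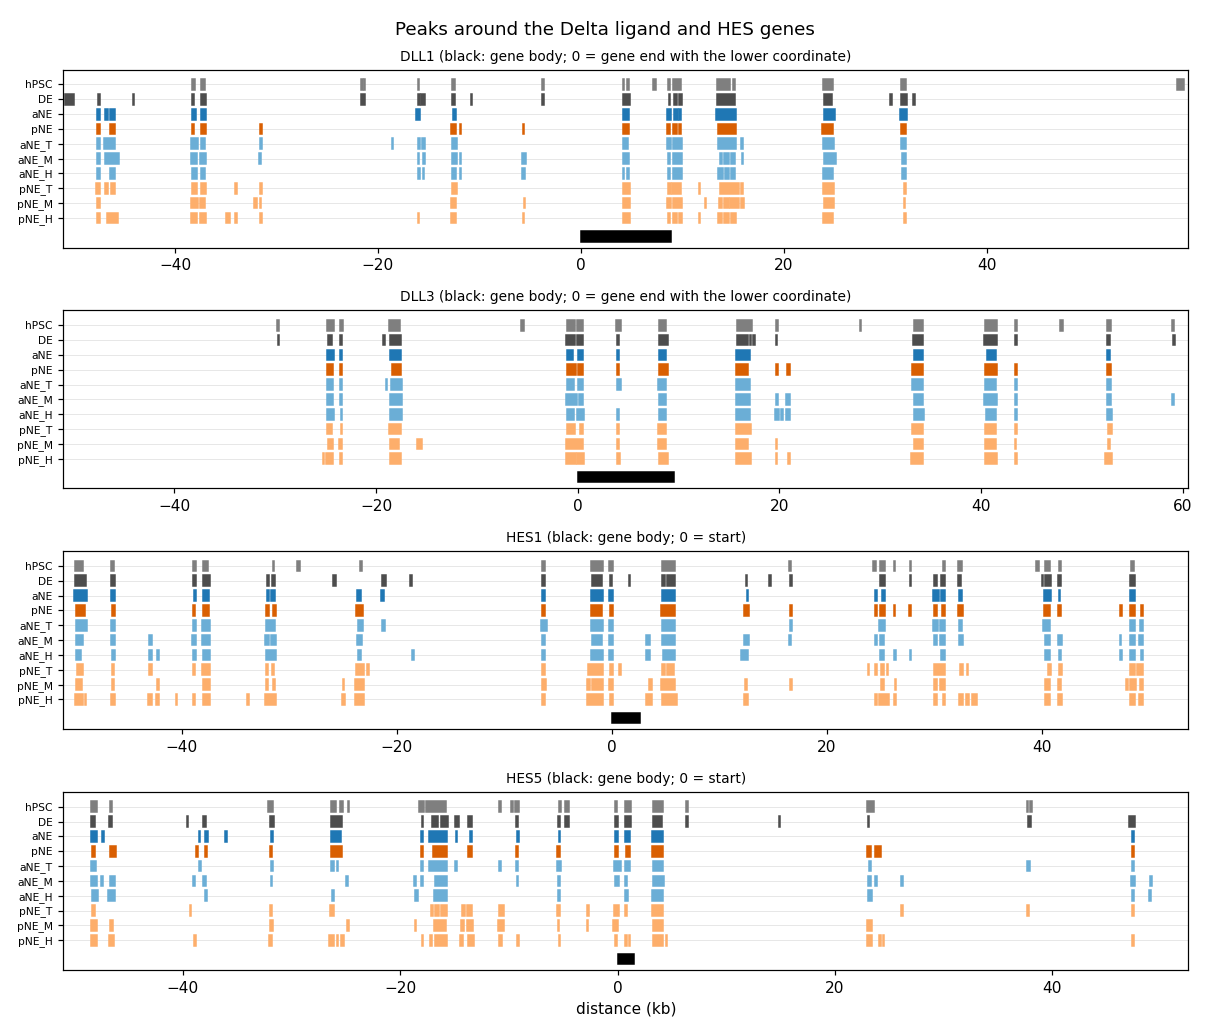
Each coloured block is a peak of 1 of the 10 lists (rows) at its distance in kb (x axis) from the gene start for HES1 and HES5, in the direction of transcription, and from the lower-coordinate end for DLL1 and DLL3, whose strand was not given. Black bars are the gene bodies. The row of aNE_H has no block at the HES5 start, and the HES1 start carries a block in all 10 rows.

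Gains and losses of whole regions were counted in the 9 windows together, a gain being a region open at day 4 and closed in its own day 2 list. Of the regions that differed, 15 of 30 were gains in aNE_T (50.0%, Wilson 95% interval 33.2 to 66.8%), below the 69.2% of all regions. In aNE_M 33 of 45 were gains (73.3%, interval 59.0 to 84.0%, all regions 72.6%). In aNE_H 27 of 47 were gains (57.4%, interval 43.3 to 70.5%, all regions 65.2%). The aNE_T list is the one in which gains and losses were even. The pNE-derived lists gave 27 of 48 in pNE_T (56.2%, interval 42.3 to 69.3%, all regions 54.3%) and 29 of 48 in pNE_M (60.4%, interval 46.3 to 73.0%, all regions 53.9%). In pNE_H 39 of 47 were gains (83.0%, interval 69.9 to 91.1%, all regions 83.2%). Between the day 2 lists 20 of 33 differing regions were open in pNE (60.6%, interval 43.7 to 75.3%, all regions 69.7%). The intervals cover the number of regions only, and the share for all regions lay outside the interval in aNE_T alone. That aNE_T share was 77.8% with the wider 50% of peaks and 69.0% when a region had to be 50% covered, so it is not stable. The lists share their day 2 reference within each origin, so these shares are not independent of each other.

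**Figure D5:**
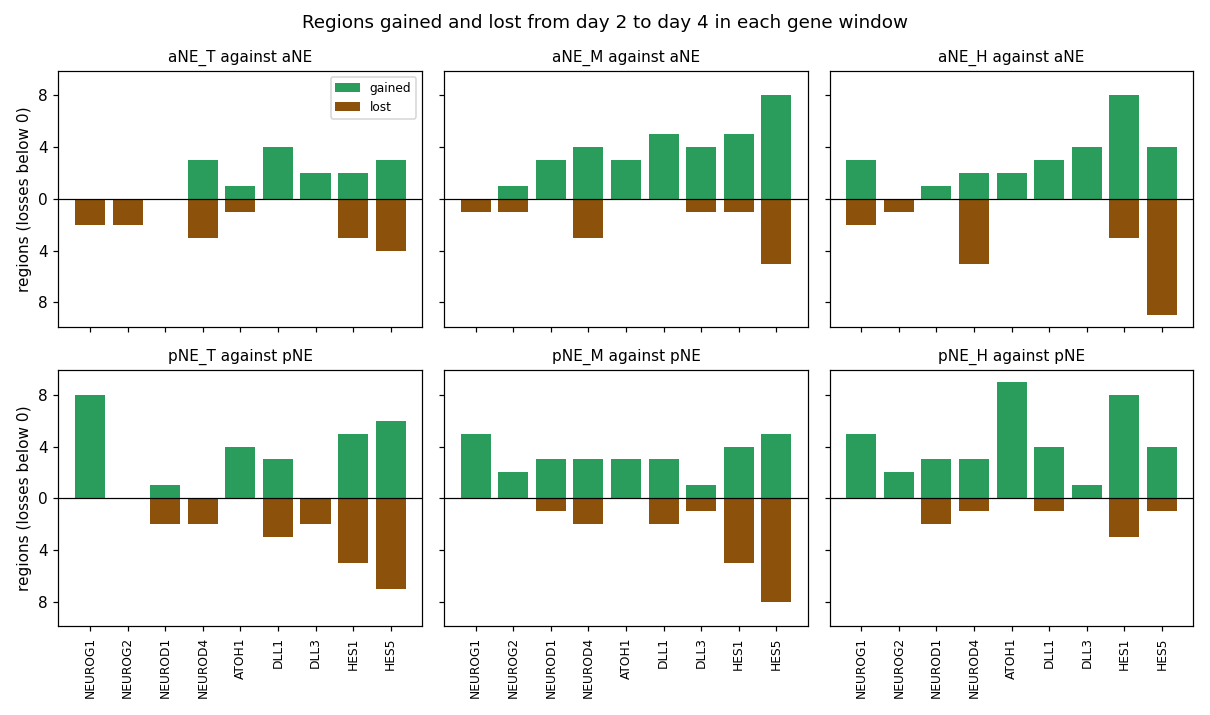
Bars above 0 count the regions gained and bars below 0 the regions lost in each gene window (x axis) from the day 2 list to the day 4 list named above each panel. NEUROG1 has 8, 5 and 5 gains and no losses in the pNE-derived panels, and HES5 has the longest loss bar in aNE_H, with 9 regions.

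Of the 245 regions in the 9 windows 73 (29.8%) were open in all 10 lists, against 16.5% of all regions. The share was 20.8% to 43.8% at 8 of the genes and 10.8% at HES5. In the 9 windows together 65 regions (26.5%) were open in 1 list only, against 33.5%. Constant regions were wider, with a median width of 851 bp against 272 bp for the others, as over the whole series (871 and 258 bp). No region was open in all 6 day 4 lists and in neither day 2 list, against 0.195% of all regions, and none was open in both day 2 lists and in no day 4 list, against 0.202%. Regions open in hPSC or DE and never later numbered 35 (14.3%, against 12.9% of all), of which 8 lay at DLL1, 6 each at DLL3 and HES1 and none at NEUROD4.

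The other genes of the pathway were taken from lists made by function, and their counts are read against the shares of all tested genes given above for the same list (from 1.90% higher in pNE_M to 23.0% in pNE_H). Of 28 other Notch pathway genes (receptors, ligands, fringe enzymes, the RBPJ complex and HES and HEY effectors), 2 were called higher in aNE_T, 1 each in aNE_M, aNE_H and pNE_T, none in pNE_M and 4 in pNE_H (RBPJ, MAML2, MAML3 and ADAM10), and none was called lower in any. MAML2, which encodes a co-activator in the RBPJ complex, was the only gene of the lists called in at least 5 of the 6 day 4 lists. Its window held 9137 covered bases in aNE and 14676, 18630 and 15087 in aNE_T, aNE_M and aNE_H, or 1.61, 2.04 and 1.65 times aNE. Against 14245 bases in pNE it held 21586 in pNE_T (1.52 times), 14509 in pNE_M (1.02 times) and 24241 in pNE_H (1.70 times). In hPSC it held 14591 bases and in DE 12509, so aNE was the lowest of all lists. The aNE_T and aNE_H values were near that of hPSC, while aNE_M, pNE_T and pNE_H were above every list before day 4. MAML2 was also called higher in pNE than in aNE (1.56 times). Its calls in aNE_T, aNE_M and aNE_H all share the low aNE value as reference. The whole lists covered 1.15, 1.21, 1.11, 1.04, 0.977 and 1.5 times as many bases as at day 2, in the same order. MAML2 ratios divided by these were not computed. Neither was the share of all tested genes called in at least 5 lists. Of 21 other proneural bHLH genes and their inhibitors, 2 were called higher in aNE_T, 2 in aNE_M and 6 in pNE_H, among them TCF4 and ID4, with none called in the other 3 lists and none lower. Of 20 genes of early neurons, 1 was called higher in each of aNE_M, pNE_T and pNE_M, 6 in pNE_H, and 1 was called lower, in pNE_M. Thus 4 of 28, 6 of 21 and 6 of 20 were called higher in pNE_H, where the share of all tested genes was 23.0%. The medians of the 3 lists in pNE_H were 1.23, 1.40 and 1.42, beside 1.29 for all tested genes. In pNE_M they were 0.936, 0.993 and 0.994, beside 0.926.

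For each gene the protein-coding genes with the most alike pattern were found as the highest Pearson r of covered bases per base of the list, over the 10 lists and among about 18180 genes. The nearest to HES5 were TRIM31 and POLR1H (r = 0.994 and 0.993). These lie close together on chromosome 6, so their windows overlap and they are not separate matches. The nearest to DLL3 were MIA and PILRA (0.985 and 0.980). For HES1 they were KAT2B and CAND1 (0.954 and 0.944), for DLL1 DNASE1L3 and SLIT1 (0.936 and 0.933) and for ATOH1 SNAP91 and TRIQK (0.944 and 0.939). For NEUROG1 they were PTH1R and CNPY2 (0.943 and 0.941), for NEUROG2 SCOC and KCNJ10 (0.940 and 0.916), for NEUROD1 CCL19 and SPR (0.926 and 0.923) and for NEUROD4 CYLC2 and SEC31A (0.867 and 0.847). None of the 9 genes was among the nearest of another. All points share the length of their list as a divisor, and 10 lists bear each value, so this is a description only.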

How the data were processed

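Values are the peak start and end positions as deposited by the authors, 1 list per group, in 3 columns with no score. The submitters' processing notes name FastQC, Bowtie2, MACS2, bedtools, featureCounts, edgeR, deepTools and hg38, without versions, roles or order. How 3 replicates became 1 list, and the peak threshold, are not given in the sources used here, and either could move every count. Starts were raised by 1, and scaffolds were dropped, and peaks of different lists sharing 1 bp or more were joined into regions. Gene positions were those of GRCh38.p14 from RefSeq, and gene starts came from its promoter table. Region names followed a written rule (regions at the start, or shared by all lists of a day or origin), and others are stated as picked after their values were seen. All further regions named for single genes were picked in that way too. The share of all regions with the same pattern was computed only where it is given. The members, the gene lists and the rules were chosen with earlier results of these data known. Wilson intervals are at 95%. Alternatives were other windows, list lengths, peak widths and overlaps. The code was tested on simulated lists. Python 3.11.15, numpy 2.4.6, pandas 2.3.3, scipy 1.17.1 and matplotlib 3.10.9 were used.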

Additional observations from a re-analysis of the deposited data

How the results depend on the processing

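No paired analysis was possible because each group has 1 peak list without values per replicate, and leaving out replicates was not run for the same reason. Of 40 shares of gains recomputed under other settings, 31 stayed within the interval given above. Of 432 ratios of covered bases 420 stayed within 1.5 times, and the 12 that moved were all from the gene body alone. That limit is wide beside main ratios of 0.769 to 1.6, and the side of 1 was less stable. Of 54 ratios per setting, 27 kept their side of 1 when divided by the bases of the list and 28 with the gene body alone. The number was 33 with 500 bp around midpoints, 38 with 10 kb, 44 with 50% covered and 46 with 100 kb. It was 47 with the widest peaks and 47 with the wider 50% of peaks. A ratio that rounded to 1.00 was counted as not kept. The share of gains moved to 77.8% (wider 50% of peaks) and 69.0% (50% of a region covered) in aNE_T, and to 75.0% (10 kb each side) in pNE_M. It reversed to 42.5% in aNE_M and 36.1% in pNE_H when each list was reduced to its widest 167792 peaks, which takes more peaks from the longer lists. The gene body alone left at most 1 differing region, with 0.0% gains in aNE_M (reversed), aNE_H and pNE_M, 100.0% in pNE_T and no value in aNE_T and pNE_H. Of the 54 values of the 9 genes, those called higher numbered 2 (gene body), 0 (10 kb), 4 (100 kb), 0 (widest peaks), 3 (wider 50% of peaks), 2 (500 bp around midpoints), 7 (50% covered) and 0 (divided by the bases of the list), against 1. Those called lower numbered 9 (gene body), 1 (10 kb) and 1 (500 bp), against 0. For these counts the cause was not tested. The unknown depth sets which weak sites appear, so a missing peak means only that none was listed.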
